A study of Mus musculus with 8 samples.

Results

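Interferon-stimulated genes were followed in sorted spinal cord microglia, 1 library from each of 8 female mice. The 39 members are a chosen list of genes that type I interferon is known to induce, with the STAT, IRF and Ifi200 genes left out. They were found by Ensembl identifier among the 54532 genes of the deposited count table, and all 39 were in it. Of these, 38 passed the filter on low counts and were among the 17291 genes tested, and Oas3 did not pass. The groups were 4 wild-type mice (WT, numbers 503, 504, 506 and 527) and 4 knock-in mice (KI, numbers 513, 526, 528 and 549). The labels give the KI genotype as Cd11b-P2X4mCherryIN, name spinal cord microglia in both groups, and give no strain, age, treatment or batch. P2X4 is an ATP-gated cation channel, CD11b a surface integrin of myeloid cells and mCherry a red fluorescent protein. The allele is known as a tagged P2X4 that is poorly taken up from the cell surface. The libraries held 45167483 to 54049801 reads on genes, and living cells had been sorted as CD11b-positive, CD45-low and Ly6C-negative. The 10 microglial markers summed to 35471 to 40977 CPM (counts scaled by TMM to a common library total) in WT and 34303 to 38404 in KI. By the edgeR quasi-likelihood test, 1 of the 10 was higher in KI at an unadjusted p under 0.05 and 3 were lower. Over all genes tested, 3.23% were higher and 4.56% lower. None of the 10 passed after adjustment, and 1 was lower in KI without overlap of the groups (2.6% of all genes).

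Type I interferons bind a receptor made of Ifnar1 and Ifnar2, which signals through the kinases Jak1 and Tyk2 to a complex that includes Stat2 and Irf9. That complex binds the interferon-stimulated response element (ISRE) in front of target genes, whose products detect viral RNA, block translation, degrade RNA or trap virus particles. In healthy brain and spinal cord, microglia keep a low tonic level of this programme, and microglia with high levels are known from infection, ageing and demyelination.

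Promoter windows were available from RefSeq (GRCm38.p6, the mm10 build) for 29 of the 39 genes, each with 250 bases before and 50 after the start of a transcript. The core of the response element, GAAA and a further GAAA with any 2 bases between them, was searched on both strands, and matches were allowed to overlap. It was found in 17 of the 29 genes (58.6%), against 3.99% of the 27025 genes with such windows and 3.44% of all 32851 windows. The interferon gamma-type motif TTCNNNGAA was found in 7 of the 29 (24.1%), against 9.55% of all genes. The 8 stretches below were picked from the genes with a match, 1 or more from the Isg15, Ifit, OAS, Schlafen and membrane protein groups described in the results. Capitals mark the motif or its reverse complement (TTTC, any 2 bases, TTTC), and each stretch reads 5′ to 3′ on the strand of its gene.
Isg15: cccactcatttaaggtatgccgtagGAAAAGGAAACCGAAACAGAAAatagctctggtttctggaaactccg
Ifit1: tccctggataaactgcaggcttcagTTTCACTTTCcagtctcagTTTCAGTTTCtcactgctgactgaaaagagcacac
Ifit3: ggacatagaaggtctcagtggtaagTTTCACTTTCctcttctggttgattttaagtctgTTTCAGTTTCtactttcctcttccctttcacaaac
Ifit3b: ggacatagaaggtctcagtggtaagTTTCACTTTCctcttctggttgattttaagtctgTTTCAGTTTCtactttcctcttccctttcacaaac
Oas1a: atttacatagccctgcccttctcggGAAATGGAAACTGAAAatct
Slfn8: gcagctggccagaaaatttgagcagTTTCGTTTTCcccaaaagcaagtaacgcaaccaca
Slfn9: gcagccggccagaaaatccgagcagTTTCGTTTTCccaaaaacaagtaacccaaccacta
Bst2: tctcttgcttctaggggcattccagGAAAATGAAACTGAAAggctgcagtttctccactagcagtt

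Isg15 held 3 overlapping matches in chr4:156200850-156200921 (minus strand). Ifit1 held 2 separate matches in chr19:34640760-34640838 (plus strand). The Ifit3 stretch, chr19:34583348-34583441, and the Ifit3b stretch, chr19:34607744-34607837, both on the plus strand, were identical in all 94 bases. The Oas1a stretch was chr5:120907526-120907570, the Slfn8 stretch chr11:83020824-83020883, the Slfn9 stretch chr11:82991841-82991900 and the Bst2 stretch chr8:71537562-71537627, all on the minus strand. No match was found in the windows of Ifit2, Herc6, Ifi35, Ifi44, Isg20, Cmpk2, Oasl1, Oasl2, Lgals3bp, Phf11d, Slfn2 and Xaf1, which says only that these letters are not in those windows.

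The members spanned a wide range of levels. Per kilobase of exon, the highest was Lgals9, which encodes the lectin galectin-9, at a mean of 161 CPM per kilobase over the 8 libraries. Next were Bst2, the membrane protein tetherin that holds budding viruses to the cell, at 109, and Lgals3bp, a secreted galectin-binding protein, at 77.4 CPM per kilobase. Slfn2, a Schlafen protein needed for the survival of resting immune cells, followed at 60.7 and Ifi35, an interferon-induced leucine zipper protein, at 45.7 CPM per kilobase. Isg15, the ubiquitin-like modifier, stood at 13.7, and Ifit1 at 7.86. The lowest was Oas3 at 0.0304 CPM per kilobase. Of the 39 genes, 32 had a mean of at least 5 CPM, 3 had 1 to 5 CPM (Slfn5, Cmpk2 and Zbp1), and 4 lay below 1 CPM (Oas2, Oasl1, Ifi44 and Oas3). For 36 of the 38 steps between neighbours in this order, the ranges of both genes over the 8 libraries overlapped. The ranges were compared without pairing the values of a library, so overlap does not show that the order changed within libraries. The exceptions were the steps from Lgals9 to Bst2 and from Bst2 to Lgals3bp.

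**Figure D1:**
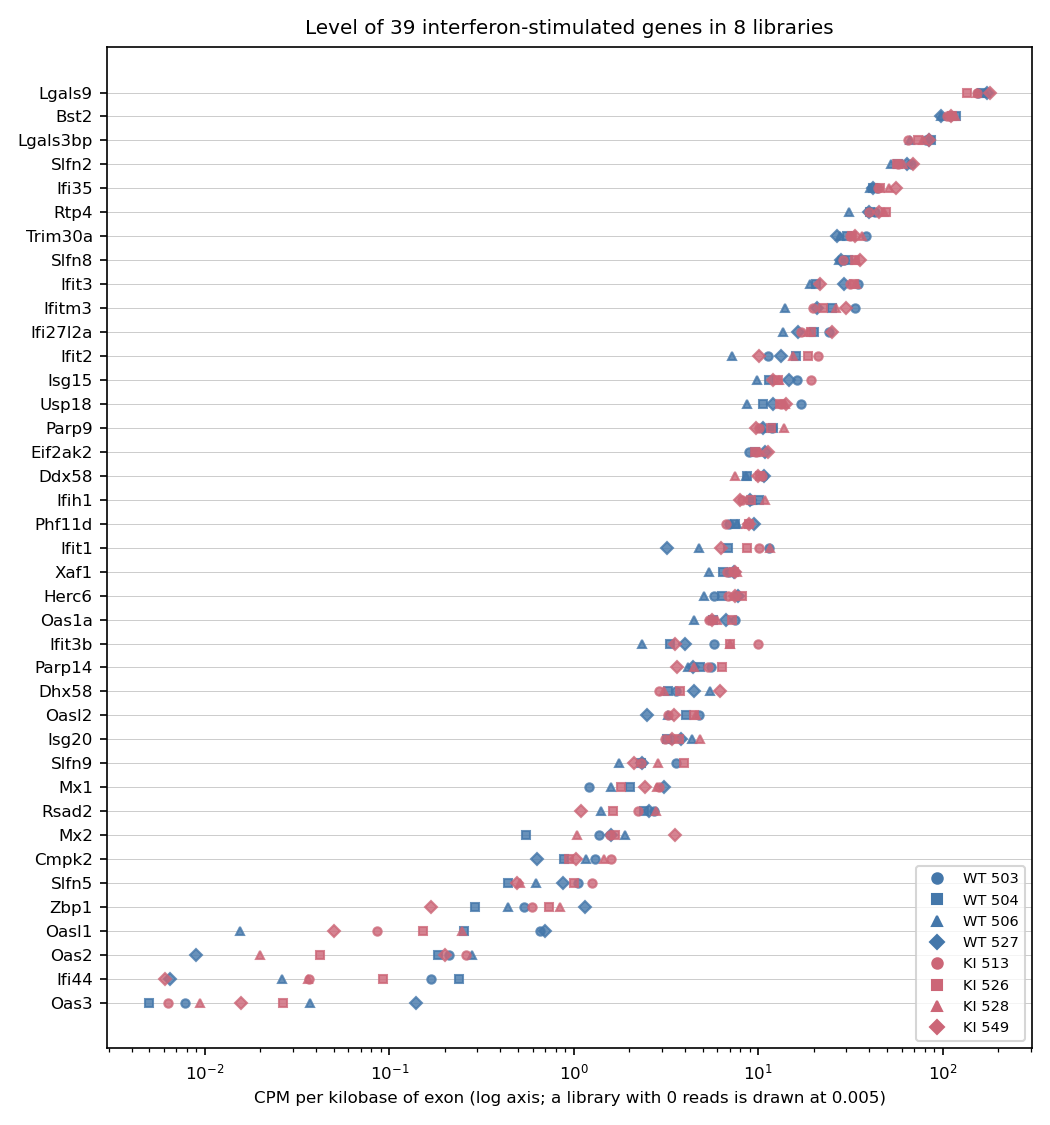
Level of each of the 39 genes in CPM per kilobase of exon on a log axis, 1 point per library (WT blue, KI red, the marker shape naming the mouse). Lgals9 stood highest at a mean of 161 and Oas3 lowest at 0.0304, and the points of WT and KI were mixed in nearly every gene.

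Between KI and WT, 0 of the 38 tested members passed the edgeR quasi-likelihood test at an adjusted p under 0.05, as did 0 of the 17291 genes (0%). The smallest adjusted p of a member was 0.598 (Ifi35). DESeq2, edgeR's likelihood ratio test and limma-voom also called 0 members, while over all genes they called 139 (0.804%), 42 (0.243%) and 0 (0%). DESeq2 gave no adjusted p for Oasl1, Oas2, Ifi44 and Zbp1, so it could not call these members. At an unadjusted p under 0.05 were 3 members (Ifi35, Slfn8 and Ifit3b), all higher in KI and 7.89% of the members. Over all genes this share was 7.79% in either direction, 3.23% for higher and 4.56% for lower genes. The 3 members became 6 without WT 503 (15.8%, against 8.43% of all genes in that fit) and 2 without WT 504 or WT 527 (5.26%, against 6.85% and 6.21%). They became 1 without WT 506 or KI 526 (2.63%, against 5.67% and 7.01%) and 0 without KI 528 (6.38% of all genes). Only Ifi35 had groups that did not overlap, 2.63% of the members against 2.34% of all genes that were higher, 2.6% that were lower and 4.94% in either direction.

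More fold changes lay above 0 than below it. Of the 38 members, 27 had a log2 fold change (KI over WT) above 0 (71.1%), against 50.1% of all genes tested, and the median was 0.09 against 0.00. The members' median in single libraries had a within-group SD of 0.12 on the log2 CPM scale, larger than 0.09. Members also tended to vary together across libraries, so the 38 signs are not independent. Without WT 506 there were 24 above 0 with a median of 0.05. The median was 0.06 without KI 526 and 0.17 without WT 503. For 30 of the 38 members the 95% interval excluded changes of 2-fold or more, and for 20 it excluded 1.5-fold or more. In a simulation of this comparison over 16618 genes, 73% of 200 genes changed 2-fold were recovered. The changed genes were drawn from those with a mean of at least 5 CPM, and counts were drawn independently for each gene. With 200 genes changed at once, an adjusted p under 0.05 is easier to reach than with few changed genes. The share therefore does not apply to members below 5 CPM, to changes smaller than 2-fold or to a single changed gene.

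**Figure D2:**
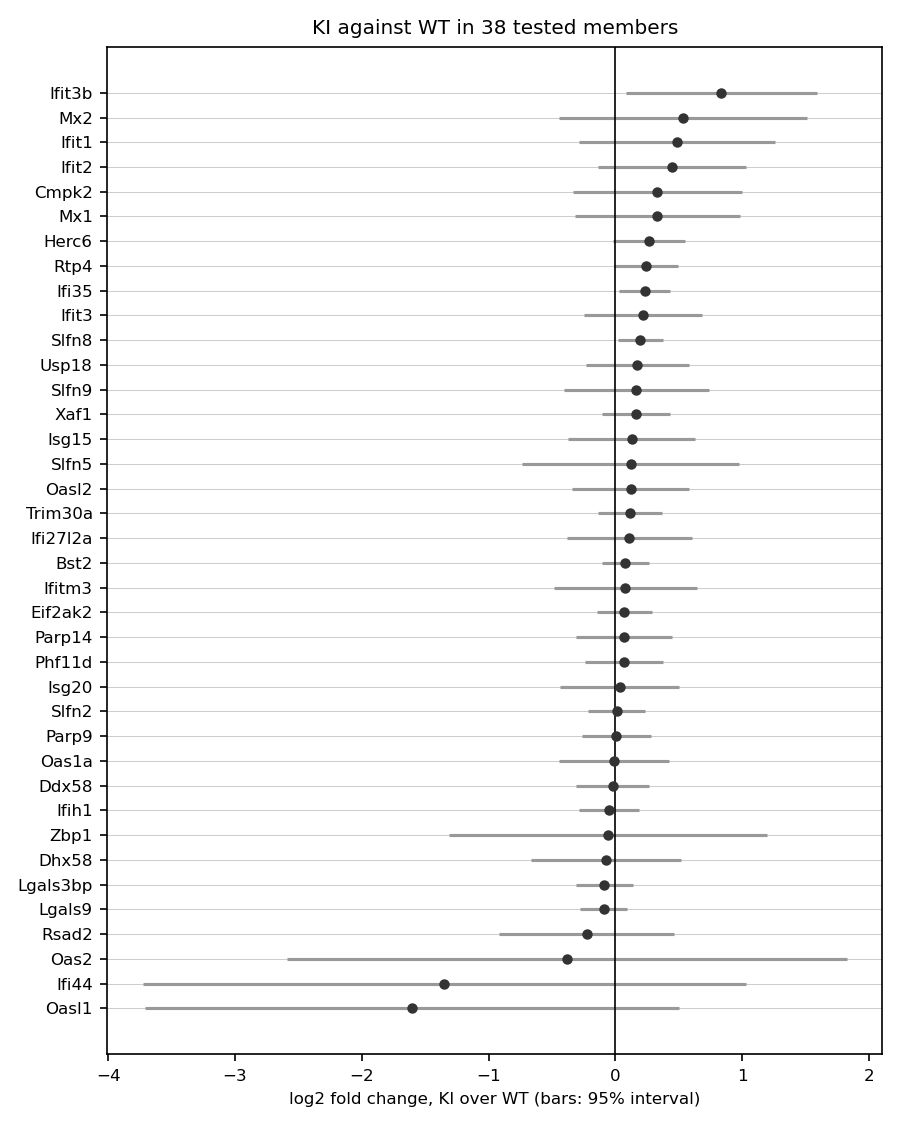
Log2 fold change of KI over WT for the 38 tested members with the 95% interval of the edgeR quasi-likelihood fit, ordered by size. Values ran from -1.60 (Oasl1) to 0.84 (Ifit3b), with 27 to the right of 0, and the widest bars belong to the low genes Oasl1, Ifi44 and Oas2.

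The values of single libraries follow in the order WT 503, 504, 506 and 527 and then KI 513, 526, 528 and 549, in CPM, and group values are means ± SD (n = 4 each). The Ifit proteins bind foreign RNA ends and block its translation. Their 4 genes lie side by side on chromosome 19 (34550694 to 34650009, plus strand, mm10), and all 4 had a fold change above 0.

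Ifit1 (ENSMUSG00000034459), which recognises RNA lacking a methylated cap, had 30.2, 18.1, 12.7 and 8.55 CPM in the WT libraries and 26.9, 23.2, 30.7 and 16.7 in the KI libraries. The WT libraries ran from below all KI libraries to nearly the highest, so the groups overlapped (log2 fold change 0.49, SE 0.347, edgeR adjusted p = 0.805). Ifit2 (ENSMUSG00000045932), a partner of Ifit1 and Ifit3, had 44.3, 63.0, 28.3 and 52.1 CPM in the WT libraries and 82.4, 72.9, 60.9 and 39.5 in the KI libraries. WT 506 was lowest and KI 513 highest, with a log2 fold change of 0.45 (SE 0.263, adjusted p = 0.741).

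Ifit3 (ENSMUSG00000074896), which stabilises the Ifit complex, had 60.4, 35.7, 33.4 and 50.8 CPM in the WT libraries and 55.1, 57.7, 59.1 and 37.8 in the KI libraries. Here WT 503 was the highest library and the groups overlapped (log2 fold change 0.22, SE 0.208, adjusted p = 0.875). Ifit3b (ENSMUSG00000062488), its close copy, had 11.5, 6.66, 4.70 and 8.01 CPM in the WT libraries and 19.8, 14.1, 14.2 and 7.09 in the KI libraries. It averaged 7.72 ± 2.87 and 13.8 ± 5.22 CPM, with KI 549 inside the WT range and the other KI libraries above it. The log2 fold change of 0.84 (SE 0.34, 95% interval 0.08 to 1.59, adjusted p = 0.607) was the highest of the members. Of the 50-base words in Ifit3b transcripts, 44.5% also occur in Ifit3, and 51.2% of those of Ifit3 occur in Ifit3b, so how reads were divided between the copies is uncertain. With 1 library left out, the fold change of Ifit3b ranged from 0.61 to 1.09.

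Isg15 (ENSMUSG00000035692, chromosome 4, 156199424 to 156200818, minus strand) encodes the modifier that is joined to other proteins. It had 12.2, 8.65, 7.42 and 11.1 CPM in the WT libraries and 14.6, 9.63, 9.81 and 9.09 in the KI libraries. KI 513 stood apart from the other KI libraries, which lay within the WT range, and the log2 fold change was 0.13 (SE 0.225, adjusted p = 0.949). Without 1 library it ranged from -0.06 to 0.25.

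Usp18, which removes Isg15 from proteins and damps signalling at the receptor, had 47.3, 29.8, 24.2 and 33.4 CPM in the WT libraries and 36.9, 36.7, 38.8 and 39.7 in the KI libraries. The KI libraries lay close together (38 ± 1.45 CPM) inside a wide WT range (33.7 ± 9.87), with a log2 fold change of 0.17 (adjusted p = 0.886). Herc6, the main ligase that attaches Isg15 in mice, had 53.2, 59.1, 47.4 and 72.1 CPM in the WT libraries and 64.1, 76.4, 68.8 and 69.8 in the KI libraries. The WT libraries 503, 504 and 506 lay below every KI library and WT 527 lay above 3 of them (log2 fold change 0.27, SE 0.128, adjusted p = 0.674).

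The OAS enzymes make a small nucleotide signal that activates an RNase, and Eif2ak2 (PKR) stops translation when it binds double-stranded RNA. Eif2ak2 had 45.5, 49.1, 48.9 and 55.5 CPM in the WT libraries and 49.8, 49.2, 52.0 and 58.0 in the KI libraries, a log2 fold change of 0.07 (SE 0.0984, adjusted p = 0.928). Its within-group SD of 0.11 on the log2 CPM scale was among the lowest of the members. Oas1a had 14.2, 10.7, 8.50 and 12.6 CPM in the WT libraries and 10.2, 13.5, 11.2 and 10.6 in the KI libraries (log2 fold change -0.01, adjusted p = 0.995). Of its 50-base words, 57.6% also occur in Oas1g, so its level is uncertain. Oasl2, an OAS-like protein, averaged 23.2 ± 6.25 CPM over WT and 25.2 ± 4.44 over KI with overlapping groups.

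Oasl1, an OAS-like protein that limits the translation of Irf7, had 1.70, 0.666, 0.0403 and 1.83 CPM in the WT libraries and 0.223, 0.396, 0.644 and 0.130 in the KI libraries. WT 506 held the lowest value and the other WT libraries the highest, and the interval of its log2 fold change of -1.60 ran from -3.71 to 0.51 (adjusted p = 0.742). Oas2 lay between 0.0397 and 1.25 CPM in WT and between 0.0888 and 1.16 in KI. Oas3 ranged from 0 reads in WT 504 to 0.992 CPM in WT 527, and 0.0447 to 0.188 CPM in KI. A count of 0 in that library allows up to 0.0638 CPM, a limit that is too low if both mates of a pair were counted.

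The 4 sensors of viral nucleic acids had fold changes just below 0, and none passed the test. Ifih1 (MDA5), which detects long double-stranded RNA, had 74.5, 82.3, 75.2 and 74.2 CPM in the WT libraries and 67.0, 74.5, 88.8 and 64.9 in the KI libraries (log2 fold change -0.05, SE 0.107, adjusted p = 0.956). Ddx58 (RIG-I), which detects RNA ends, had 74.7, 61.1, 60.8 and 76.2 CPM in the WT libraries and 74.2, 72.4, 52.8 and 70.0 in the KI libraries (log2 fold change -0.02, SE 0.129, adjusted p = 0.987). KI 528 was the highest library for Ifih1 and the lowest for Ddx58.

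Dhx58 (LGP2), a helicase that modulates both, had 11.8, 10.6, 17.9 and 14.6 CPM in the WT libraries and 9.43, 12.4, 10.1 and 20.2 in the KI libraries. Its highest libraries were KI 549 and WT 506, and WT 506 was the lowest for many other members (log2 fold change -0.07, SE 0.268, adjusted p = 0.977). Zbp1, a sensor of left-handed nucleic acids that can start necroptosis, had 1.90, 1.03, 1.55 and 4.09 CPM in the WT libraries and 2.10, 2.58, 2.97 and 0.594 in the KI libraries. It had the largest within-group SD of the members with at least 1 CPM (0.93 on the log2 scale), and its fold change of -0.06 had an interval from -1.31 to 1.19.

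The Mx proteins are dynamin-like GTPases that trap viral nucleocapsids, and many inbred laboratory mouse strains carry defective copies. Mx1 had 4.6, 7.66, 6.05 and 11.6 CPM in the WT libraries and 10.9, 6.82, 10.7 and 9.19 in the KI libraries (log2 fold change 0.33, SE 0.293, adjusted p = 0.86). Mx2 had 4.96, 2, 6.85 and 5.73 CPM in the WT libraries and 5.68, 6.07, 3.75 and 12.7 in the KI libraries (log2 fold change 0.53, SE 0.44, adjusted p = 0.843). The Mx2 value was 0.08 without KI 549 and 0.27 without WT 504.

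Rsad2 (viperin), which makes a chain-terminating nucleotide, had 11.8, 10.4, 6.07 and 11.1 CPM in the WT libraries and 9.70, 7.05, 12.2 and 4.77 in the KI libraries (log2 fold change -0.23, adjusted p = 0.928). Cmpk2, a nucleotide kinase whose gene lies next to Rsad2 on chromosome 12, had 5.46, 3.69, 4.84 and 2.62 CPM in the WT libraries and 6.64, 3.90, 6.08 and 4.31 in the KI libraries. Its log2 fold change of 0.33 (SE 0.298, adjusted p = 0.862) had the opposite sign to that of its neighbour, and neither passed. Isg20, an exonuclease for RNA, had 6.24, 5.95, 8.18 and 7.06 CPM in the WT libraries and 5.83, 6.95, 8.99 and 6.31 in the KI libraries (log2 fold change 0.03, adjusted p = 0.985).

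Among membrane proteins, Bst2 varied little, at 98.5, 106, 88.2 and 88.1 CPM in the WT libraries and 95.6, 102, 105 and 100.2 in the KI libraries. The log2 fold change was 0.08 (SE 0.0828, adjusted p = 0.887), with an interval from -0.10 to 0.26. Ifitm3, which hinders virus entry through endosomes, was more variable, at 22.8, 17.0, 9.47 and 14.2 CPM in the WT libraries and 13.5, 15.3, 17.9 and 20.3 in the KI libraries (log2 fold change 0.08, SE 0.253, adjusted p = 0.972). Ifi27l2a, a small protein of mitochondrial and nuclear membranes, ranged from 6.31 to 11.2 CPM in WT and 7.95 to 11.6 in KI.

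The 4 Schlafen genes lie together on chromosome 11 (82951349 to 83070678), and all 4 fold changes were above 0. Slfn8 had 119, 125, 112 and 115 CPM in the WT libraries and 118, 138, 138 and 145 in the KI libraries. KI 513 lay inside the WT range and the other 3 KI libraries above it (118 ± 5.67 and 135 ± 11.5, log2 fold change 0.20, SE 0.0794, adjusted p = 0.604). Slfn9, its neighbour, had 21.5, 13.8, 10.5 and 14.0 CPM in the WT libraries and 13.9, 23.6, 17.1 and 12.7 in the KI libraries (log2 fold change 0.17, adjusted p = 0.939). Of the 50-base words of Slfn8, 14.6% occur in other genes, and 11.9% of those of Slfn9. Slfn2 had 113, 95.2, 87.8 and 107 CPM in the WT libraries and 95.5, 94.1, 101 and 115 in the KI libraries (log2 fold change 0.01, adjusted p = 0.992). Slfn5, a nuclear member of the family, was lower and variable, at 6.66, 2.77, 3.95 and 5.51 CPM in the WT libraries and 7.93, 6.31, 3.22 and 3.12 in the KI libraries (log2 fold change 0.12, adjusted p = 0.971).

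Parp9 and Parp14 are ADP-ribosyltransferases that act on interferon signalling, and their genes lie near each other on chromosome 16. Parp9 had 57.7, 58.8, 51.0 and 51.9 CPM in the WT libraries and 49.1, 56.9, 67.4 and 47.4 in the KI libraries (log2 fold change 0.01, SE 0.123, adjusted p = 0.995). Parp14 had 51.4, 44.9, 38.6 and 41.4 CPM in the WT libraries and 49.9, 59.4, 41.8 and 33.8 in the KI libraries (log2 fold change 0.07, SE 0.169, adjusted p = 0.964). The KI libraries spread more widely than the WT libraries in both genes, and the groups overlapped.

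Both galectin genes had fold changes below 0. Lgals9 had 333, 349, 366 and 374 CPM in the WT libraries and 329, 292, 327 and 386 in the KI libraries (log2 fold change -0.09, SE 0.0846, adjusted p = 0.868). Lgals3bp had 232, 246, 190 and 239 CPM in the WT libraries and 185, 210, 222 and 239 in the KI libraries (log2 fold change -0.09, SE 0.101, adjusted p = 0.905).

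Ifi35 (ENSMUSG00000010358, chromosome 11, 101448407 to 101458698, plus strand) had 76.3, 72.1, 69.7 and 72.2 CPM in the WT libraries and 77.4, 78.8, 88.1 and 96.6 in the KI libraries. All KI libraries lay above all WT libraries, but KI 513 exceeded WT 503 only narrowly. The means were 72.6 ± 2.7 and 85.2 ± 8.96 CPM, with a log2 fold change of 0.23 (SE 0.0893, 95% interval 0.03 to 0.43, edgeR adjusted p = 0.598). It stayed between 0.17 and 0.27 with 1 library left out.

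Rtp4, a chaperone of receptors at the Golgi, had 91.6, 85.7, 66.4 and 84.8 CPM in the WT libraries and 84.5, 105, 103 and 96.4 in the KI libraries (log2 fold change 0.24, SE 0.113, adjusted p = 0.661). WT 506 was the lowest library, and only KI 513 lay within the WT range. Trim30a, a ring-finger protein that restrains Toll-like receptor signalling, averaged 127 ± 22 CPM over WT and 138 ± 8.81 over KI. Xaf1, a proapoptotic zinc-finger protein, averaged 30.7 ± 4 and 34.4 ± 1.80 CPM, and Phf11d, a zinc-finger protein, 35.5 ± 5.13 and 37.3 ± 4.73. Ifi44 lay below 1.5 CPM in every library (0.0397 to 1.46 in WT and 0.0371 to 0.565 in KI). The groups overlapped in each of these 5 genes, and none of their adjusted p-values was below 0.661.

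**Figure D3:**
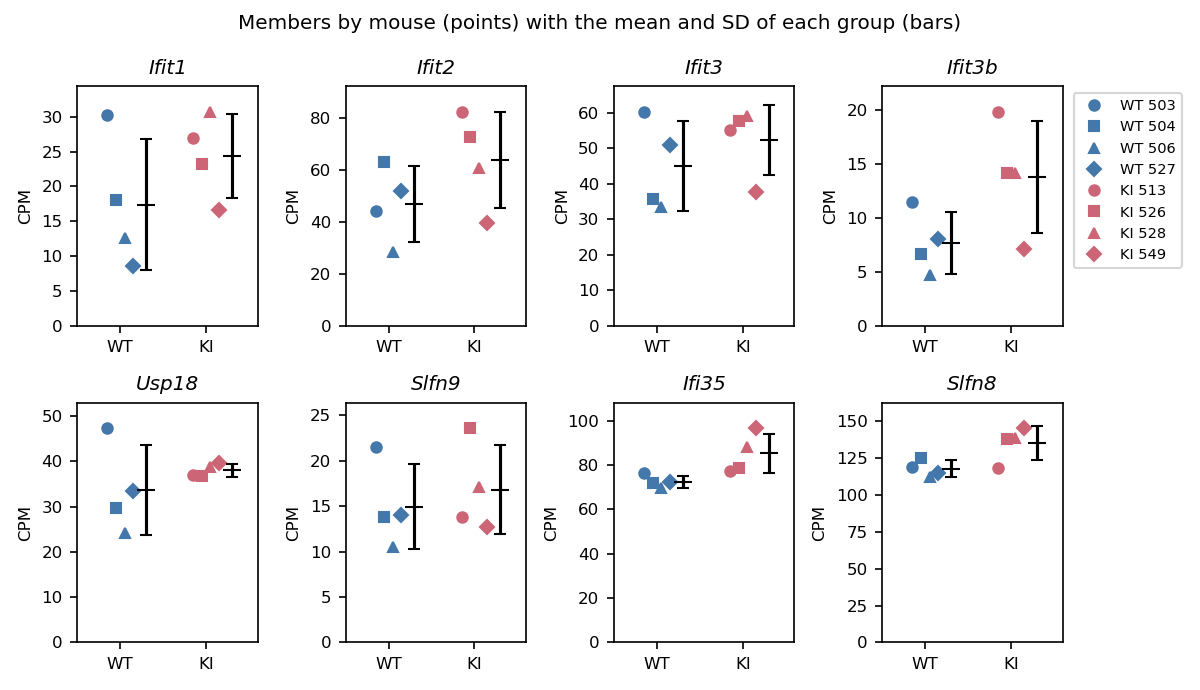
CPM of 8 members in each mouse (points, shape naming the mouse) beside the group mean with its SD (bars, n = 4), with axes that start at 0. In Ifit1, Ifit3, Usp18 and Slfn9 WT 503 reaches the upper KI values, while in Ifi35 the 4 KI points lie above all WT points.

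In 15 of the 38 tested genes the highest of the 8 libraries, WT or KI, exceeded the lowest by more than 2-fold. In Ifit2 and Ifit3b, for example, KI 513 was highest and WT 506 lowest, so this count does not separate the genotypes. Mice of 1 genotype also differed, as the within-group SD shows. Among the 32 tested members with at least 5 CPM, the median within-group SD was 0.25 on the log2 CPM scale, against 0.21 for the 10171 genes with at least 5 CPM. Of those 32 members, 17 lay above that median of all genes. Over all 38 tested members the median SD was 0.295, below the 0.328 of all genes tested, and 17 members lay above 0.328.

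WT 506 was the library in which the members were lowest. It held the lowest value of 16 of the 38 tested members (42.1%), against 11.8% of all genes tested, and only 7 members (18.4%) lay above their mean over the 8 libraries, against 53.9% of all genes. The median deviation of the members in WT 506 was -0.21 on the log2 CPM scale (all genes 0.03). The highest median deviations were those of WT 503 (0.16) and KI 528 (0.15), where 26 and 27 members lay above their mean. The other libraries ran from -0.08 (WT 504) to 0.06 (KI 526), with WT 527 at 0.01, KI 513 at -0.03 and KI 549 at 0.05. WT 506 held 13352 summed CPM of the 15 immediate early and stress genes (genes switched on during tissue dissociation), against 5529 to 13643 in the other libraries. Its sum of the monocyte markers, 13.9 CPM, was the lowest of all libraries. The part of these in the low member levels was not tested.

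With the group means removed, members tended to vary together across the 8 libraries. The median Pearson r over the 703 pairs of members was 0.16 (median Spearman rho 0.143), against a median of 0.00 over all gene pairs, and 21.8% of member pairs had an r over 0.5, against 13.1%. For the 32 members with at least 5 CPM the median r was 0.22, and without WT 506 the median over all members fell to 0.0871. These are descriptions over 8 libraries, whose depth and composition every pair shares.

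**Figure D4:**
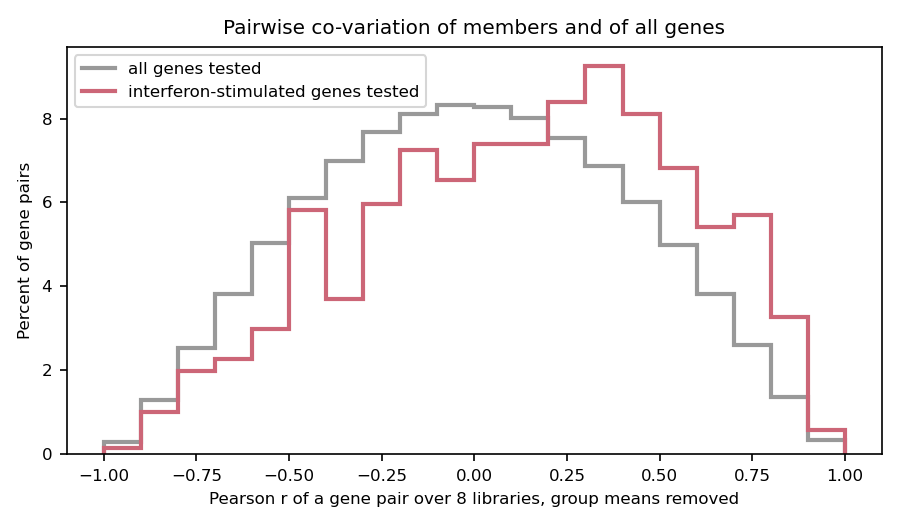
Distribution of Pearson r over 8 libraries, group means removed, for the 703 pairs of tested members (red) and all pairs of the 17291 tested genes (grey), as percent of pairs per bin. The members' curve is shifted to the right, with 21.8% of pairs over 0.5 against 13.1%.

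Compared with the mean of all other members, 29 of the 38 had a positive r and 17 an r over 0.5, with a median of 0.44. The highest were Slfn9 (0.833), Usp18 (0.824), Ifit3 (0.819), Ifit3b (0.815) and Oas1a (0.80). Of these 17, 12 had their lowest value in WT 506. Next to these stood Ifit1 (0.702), Trim30a (0.699), Rtp4 (0.697), Parp14 (0.683), Oasl1 (0.674), Rsad2 (0.673), Isg15 (0.646) and Ifitm3 (0.642). A negative r was found for 9 members, Dhx58 (-0.714), Lgals9 (-0.65), Eif2ak2 (-0.564), Mx2 (-0.508), Oas2 (-0.377), Phf11d (-0.373), Mx1 (-0.372), Isg20 (-0.363) and Ifi35 (-0.0264). The Mx2 and Dhx58 levels tracked each other (r = 0.855), as did those of Lgals9 and Eif2ak2 (0.834).

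Chromosomal neighbours did not always rank first among the pairs. The closest pair was Ifi27l2a on chromosome 12 with Ifitm3 on chromosome 7 (r = 0.95), followed by Ifih1 with Parp9 (0.941). Ifit3 and Ifit3b, which share sequence, reached 0.887. Members with the response element core in their window had a median r with the other members of 0.644 (16 genes), and those without it 0.306 (12 genes). Tested members that had no window were left out of both. Of the 13 members with a window and an r over 0.5, 9 held a match, as did 7 of the 15 others with a window. A part of the element in the co-variation was not tested.

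**Figure D5:**
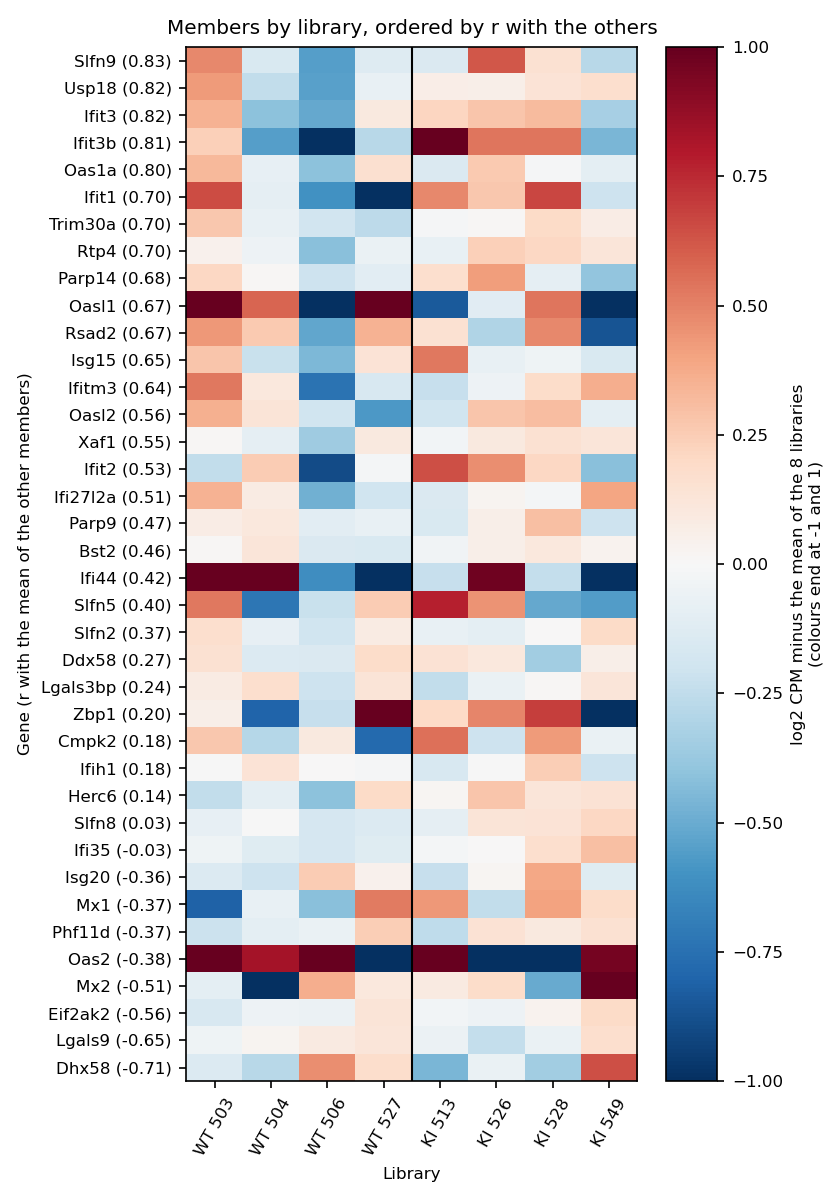
Log2 CPM of the 38 tested members minus their mean over the 8 libraries (red above, blue below, colours ending at -1 and 1), ordered from the highest to the lowest r with the other members, given in brackets. WT 506 is blue through most of the upper rows, and Dhx58 at the bottom (-0.714) runs against them.

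The interferon ligands themselves were almost absent. The 21 ligand genes of the list together held 337 reads in all 8 libraries, with a summed level of 0.666 to 1.11 CPM in WT and 0.782 to 0.954 in KI, and 0 of them passed the filter. Ifng, the type II interferon, held 0 reads in every library. Ifnb1, the interferon beta gene, had 0, 0.0429, 0.0806 and 0.456 CPM in the WT libraries and 0, 0, 0.444 and 0.0371 in the KI libraries. Its reads thus came mainly from WT 527 and KI 528, and the members were high in KI 528 but near their mean in WT 527.

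Of the 11 receptor and signalling genes, all tested, 7 had fold changes above 0 and 0 reached an unadjusted p under 0.05. The receptor gene Ifnar1 averaged 192 ± 28.4 CPM over WT and 174 ± 19.2 over KI, and Ifnar2 158 ± 5.94 and 161 ± 6.87. Stat2 averaged 33.4 ± 7.06 and 27.1 ± 2.73 CPM, and Irf9 217 ± 23.4 and 228 ± 31.9.

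Genes that lead to interferon production (15, all tested) had 4 fold changes above 0 and a median of -0.07. At an unadjusted p under 0.05 were 2, both lower in KI, against 4.56% of all genes. Of all genes, 2.6% were lower in KI without overlap. Myd88, the adaptor of Toll-like receptors, had 70.1, 83.3, 75.0 and 77.6 CPM in the WT libraries and 67.9, 55.5, 62.7 and 69.3 in the KI libraries without overlap (log2 fold change -0.26, edgeR adjusted p = 0.592). Unc93b1, which carries nucleic acid-sensing receptors to endosomes, averaged 1195 ± 139 CPM over WT and 966 ± 149 over KI (log2 fold change -0.31, adjusted p = 0.598). Irf7, the factor that amplifies interferon production, had 9.25, 5.69, 7.09 and 9.68 CPM in the WT libraries and 4.29, 5.35, 11.2 and 8.61 in the KI libraries.

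Genes that limit the response (11, of which 10 were tested and Trex1 held 0 reads) had 4 fold changes above 0. Over all genes, 3.23% were higher in KI at an unadjusted p under 0.05 and 2.34% were higher without overlap. Of the limiting genes, 1 reached such a p. That gene was Pias1, a SUMO ligase that restrains interferon signalling, at 513, 540, 503 and 515 CPM in the WT libraries and 607, 600, 645 and 594 in the KI libraries without overlap (log2 fold change 0.24, edgeR adjusted p = 0.507). Genes induced mainly by interferon gamma (16, all tested) had 8 fold changes above 0, and 2 higher and 2 lower genes at an unadjusted p under 0.05. Over all genes these shares were 3.23% and 4.56%, and 2.6% were lower without overlap. The guanylate-binding protein gene Gbp2 averaged 20.7 ± 4.01 CPM over WT and 30.9 ± 6.64 over KI (log2 fold change 0.57), and the GTPase gene Irgm1 86.9 ± 16.6 and 106 ± 8.32 (0.29). Its relative Irgm2 averaged 180 ± 18.3 and 147 ± 8.32 without overlap (-0.29), and the peptide transporter gene Tap2 71.0 ± 6.76 and 48.2 ± 12.6 (-0.56). None of these passed after adjustment (edgeR adjusted p = 0.512 to 0.64). Both genes of Isg15 conjugation, Uba7 and Ube2l6, had overlapping groups, with fold changes of -0.26 and 0.09. P2rx4, the gene of the knocked-in receptor, averaged 793 ± 43.5 CPM over WT and 859 ± 62.8 over KI, which does not check the genotype since counts over whole genes do not separate the alleles.

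Among the markers of other cells, the sum for monocytes did not overlap between the groups. Of the 5 erythroid genes, 3 were lower in KI at an unadjusted p under 0.05, against 4.56% of all genes. The 8 monocyte markers, all in the table, summed to 13.9 to 24.4 CPM in WT and 25.4 to 40.6 in KI without overlap. Of the 4 tested, 1 was higher in KI without overlap, against 2.34% of all genes, and 0 reached an unadjusted p under 0.05. Most of that sum was Ms4a4c (8.59 to 19.3 CPM in WT, 19.3 to 28.9 in KI), a gene known to respond to interferon. The gate left out Ly6C-positive cells, and the defining marker Ly6c2 ranged from 0 to 0.436 CPM. The cause of the difference in the monocyte sum was not tested. In KI 528 the 8 neutrophil markers summed to 61.5 CPM (0.260 to 19.7 elsewhere) and the 9 markers of border-associated macrophages to 25.9 (5.25 to 12.1 elsewhere). Without KI 528, 27 members had fold changes above 0, with a median of 0.08, and 0 reached an unadjusted p under 0.05. Sums of the other lists overlapped between the groups. They were 861 to 1050 CPM in WT and 907 to 949 in KI for B cells, nearly all from Ighm and Cd79b, and 164 to 284 and 148 to 273 for oligodendrocytes. The 5 erythroid genes summed to 159 to 523 and 96.2 to 306 CPM. All 5 had fold changes below 0 with a median log2 value of -0.96, and none passed after adjustment by edgeR. The markers of T and NK cells, dendritic cells, astrocytes, neurons and endothelial cells each summed to at most 52.6 CPM. The part of these cells in the member values was not tested. In bulk libraries, more cells of a type cannot be told apart from more RNA per cell.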

How the data were processed

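RNA-seq counts of 8 libraries were used. The submitters' processing notes name build mm10, the aligner STAR (2.7.5c), featureCounts (2.0.3), SAMtools (1.9), limma, edgeR and R (3.6.0). Per the file headers, the deposited raw counts are featureCounts sums over exons per gene, with paired-end input, primary alignments, no strand setting, and mates not requested to be joined. Reads of overlapping or near-identical genes are therefore uncertain. The deposited table gives the exon length in bases, used for levels per kilobase. Another 8 columns match no label and were not used, nor were the deposited FPKM and normalized tables. Of the identifiers, 54409 matched a symbol of GENCODE M21.

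The count model was edgeR 4.0.16 (R 4.3.3). Library scaling was by TMM, the filter was filterByExpr (at its minimum count of 10 and minimum total of 15), and genotype alone entered the quasi-likelihood fit, with robust dispersions. P-values were adjusted by Benjamini-Hochberg over all genes tested and called under 0.05. Intervals are 95%. Log2 CPM used a prior count of 2. Alternatives were RLE scaling, no filter, DESeq2 1.42.0, the likelihood ratio test, limma-voom 3.58.1, halved counts, and each library left out. The fit was tested on simulated data. A count of 0 allows 3 reads, or 0.0555 to 0.0664 CPM, and covers counting error only. Of counts from 1 to 9, 68.9 to 70.8% were even, so both mates of a pair may have been counted, and these limits may be too low.

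The members, gene lists and tests were chosen with earlier results of these data known. By rule, library values were given for 21 members: in each role group the highest per kilobase and the smallest p, any with an unadjusted p under 0.05 or no overlap, and the 3 with the largest within-group SD at 1 CPM or more. The other 17 tested members were named after their values were seen. Some genes of the related lists are not reported here.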

Additional observations from a re-analysis of the deposited data

Results flagged for a closer look

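In 108 groups of 4 libraries (the 39 members and 15 related genes in each genotype), 5 groups had a library whose gap to the nearest of the others exceeded Dixon's 95% critical share of the group's range, and chance gives about 1 in 20. Isg15 was at 14.6 CPM in KI 513, against 9.09 to 9.81 in the other KI libraries. Phf11d was at 30.2 CPM in KI 513, below the 38.7 to 40.2 of the others. Ifih1 was at 82.3 CPM in WT 504, against 74.2 to 75.2 in the other WT libraries. Ifnar2 was at 171.6 CPM in KI 526, against 157 to 159 in the other KI libraries. Ifnb1 was at 0.444 CPM in KI 528, against 0 to 0.0371 in the other KI libraries.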

How the results depend on the processing

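Under every alternative tried 0 members were called, though DESeq2 gave no adjusted p for Oasl1, Oas2, Ifi44 and Zbp1. Over all genes, DESeq2 called 139 and the likelihood ratio test 42, where the other settings, leaving out each library included (0 to 0), called 0. Between 24 and 28 members had fold changes above 0, and their median ranged from 0.05 to 0.17 with 1 library left out and from 0.08 to 0.11 under the other alternatives. Of 227 fold changes of tested members under alternatives other than leaving out a library, 225 kept their sign. By limma-voom Parp9 was at -0.0059 and Oas1a at 0.0024. Of 304 fold changes with 1 library left out, 33 in 15 members changed sign. These ranges were -0.071 to 0.082 for Ddx58, -0.15 to 0.0047 for Ifih1, -0.055 to 0.25 for Isg15, -0.11 to 0.13 for Isg20, -0.079 to 0.19 for Parp14 and -0.10 to 0.076 for Parp9. They were -0.055 to 0.069 for Slfn2, -0.17 to 0.33 for Slfn5, -0.29 to 0.46 for Zbp1, -0.37 to 0.080 for Dhx58 and -0.015 to 0.26 for Ifi27l2a. For Ifitm3 the range was -0.10 to 0.31, for Oas1a -0.13 to 0.10, for Oasl2 -0.022 to 0.28 and for Slfn9 -0.048 to 0.39. The median pairwise r of 0.16 was 0.22 among members with at least 5 CPM, and 0.0871 (without WT 506) to 0.202 with 1 library left out, an alternative added after the data were seen. The cause was not tested. No paired analysis was possible because WT and KI mice share no numbers. Low counts limit Oasl1, Oas2, Oas3 and Ifi44.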
